A study of Mus musculus with 6 samples.

Results

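The genes described here encode the glycosyltransferases and sulfotransferases that build the sugar chains of mucins and other glycoproteins. They were chosen by symbol: every mouse gene in the tables whose name begins with Galnt, Gcnt, C1galt1, B3gnt, B3galt, B4galt, B4galnt, St3gal, St6gal, St6galnac, St8sia, Fut or Chst and goes on with a number or ends there. The rule found 90 gene identifiers with 89 symbols among 25528 genes, since St6galnac2 stood for 2 identifiers. The name of the set is wider than its chemistry, because the same symbol families hold enzymes of N-linked glycans, glycolipids and glycosaminoglycans, and these are said to be so below.

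Bulk polyadenylated RNA was sequenced from murine organoids of the gastric corpus, the acid-producing main part of the stomach, kept as epithelial cultures in 3D. Organoids of the Erbb2_OE_Corpus group overexpressed the receptor tyrosine kinase gene Erbb2, and those of the Ctrl_Corpus group had been transduced with an empty vector. Each group had 3 libraries, numbered 1 to 3. The mouse strain, age and sex, the species and promoter of the introduced Erbb2, and whether a line was clonal are not stated. Separate cultures or animals are not mentioned for the libraries either, so the spread that the p-values below measure may be technical.

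Mucin-type O-glycosylation starts in the Golgi, where a GALNT enzyme adds N-acetylgalactosamine to serine or threonine. C1GALT1 then adds galactose to make the core 1 chain, and GCNT enzymes branch it into core 2. B3GNT and B4GALT enzymes lengthen the branches, and the chains are ended by sialic acid (ST3GAL, ST6GAL, ST6GALNAC and ST8SIA enzymes), fucose (FUT enzymes) or sulfate (some CHST enzymes). In the stomach these endings form the blood group H and Lewis structures of the mucous layer, to which Helicobacter pylori can bind.

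Total counts lay between 18735853 and 22767455 per library, and levels are given in CPM, counts per 1000000 scaled counts. The overexpressed gene itself was at 125, 164 and 128 CPM in control replicates 1, 2 and 3 and at 342, 349 and 285 CPM in the Erbb2 libraries, so that the groups did not overlap. Its log2 fold change was 1.23 (SE 0.15, adjusted p = 0.640 in edgeR without a replicate block; SE 0.09 and adjusted p = 3.55e-05 with it). Libraries with the same number deviated together, and a fit with that number as a block compares the groups within pairs. Without the block edgeR called 0 of the 12593 genes tested, with 419 at an unadjusted p under 0.05 (3.33% of genes), while DESeq2 called 28 higher (0.222%) and 6 lower (0.0476%), 0 of them among the 90 enzymes. Below, "rose" and "fell" refer to the fit with the block. Every gene so named had an adjusted p of at least 0.640 in edgeR without the block, so that each call rests on the pairing. Corpus markers were present in part: the pepsinogen gene Pgc lay between 52.0 and 97.3 CPM, whereas the acid pump subunit gene Atp4b had 0 counts in every library and the pit cell mucin gene Muc5ac at most 3.17 CPM. These single genes do not stand for their cell types. Over all libraries, the marker lists summed to 63.3 to 146 CPM for chief, 541 to 900 for parietal and 783 to 2086 for pit cells.

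Of the 90 enzymes, 55 had enough counts to be tested and 35 did not. With the block 5 rose and 0 fell, against 2.37% of all genes tested that rose and 0.723% that fell. The 5 were St3gal6, St3gal1 and St6gal1, which add sialic acid to galactose, Fut1, which makes the H antigen, and Gcnt1, a core 2 branching enzyme. By role, 3 of 10 tested sialyltransferases, 1 of 6 fucosyltransferases and 1 of 4 GCNT genes rose, and 0 of the 35 others. The median log2 fold change over the tested enzymes was 0.09 with the block and 0.08 without it, beside -0.01 over all genes in both fits. Within the pairs, 18 of the 55 were higher in the Erbb2 library 3 times (32.7%) and 6 were lower 3 times (10.9%), where 19.6% and 19.2% of all genes were. Filtering on low counts could favour such shares: 5 of the 55 fell below the count minimum in at least 1 library, and of these B3gnt9 and Chst7 passed it in all controls but not in all Erbb2 libraries, Chst14 and Chst8 the reverse, and B3gnt5 in neither group throughout.

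**Figure D1:**
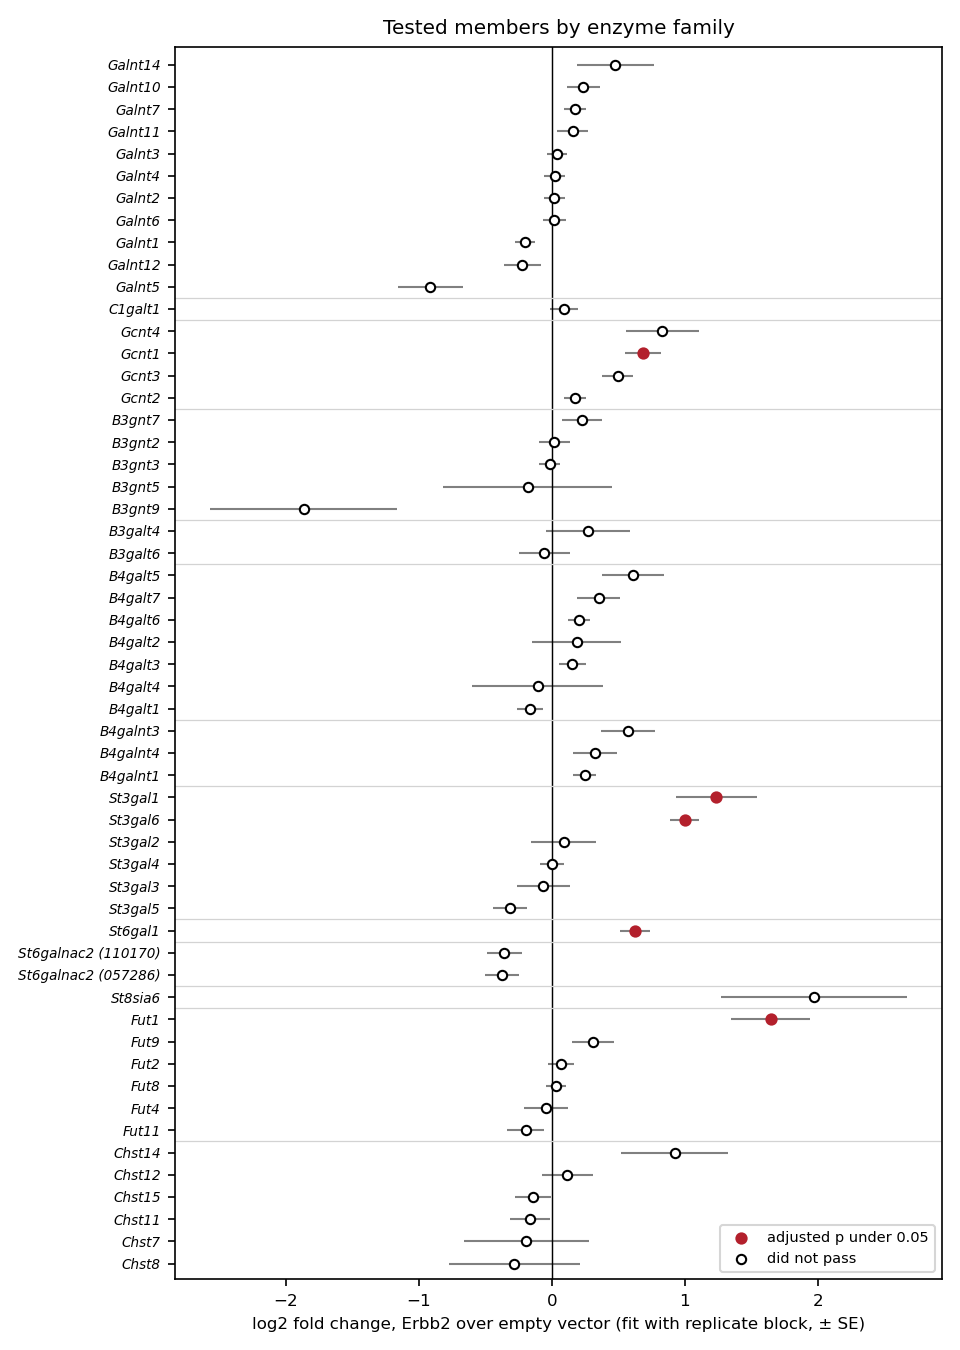
Log2 fold change, Erbb2 over empty vector, of each of the 55 tested enzymes, from the edgeR fit with the replicate block. Points are estimates and bars are 1 SE; grey lines part the symbol families, and the 5 red points, from 0.63 for St6gal1 to 1.65 for Fut1, had an adjusted p under 0.05.

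The bases before the transcription start of the enzymes that rose are shown here because these genes rose together and their start regions differ in composition. Windows of 250 bases were taken from the RefSeq promoter table (GRCm38.p6), which held 68 of the 89 symbols and 4 of the 5 that rose, St3gal1 not among them. St3gal6, St6gal1 and Gcnt1 have several listed starts, and the window richest in G and C is printed for each; counts per gene do not tell which start was used. Capitals mark matches to any of 7 motifs searched on both strands: AP-1 (TGAGTCA), ETS (CCGGAAG), CRE (TGACGTCA), the GC box (GGGCGG), the TATA-type element TATAAA, the box known as CCAAT and the E-box (CACGTG). Sequences read 5′ to 3′ towards the gene.
St3gal6, chr16:58523427-58523676, minus strand: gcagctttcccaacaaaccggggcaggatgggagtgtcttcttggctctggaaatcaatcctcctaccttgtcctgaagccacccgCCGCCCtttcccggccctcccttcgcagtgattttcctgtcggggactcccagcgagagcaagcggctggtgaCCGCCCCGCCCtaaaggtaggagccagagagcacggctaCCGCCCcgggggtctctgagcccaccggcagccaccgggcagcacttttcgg
St6gal1, chr16:23225771-23226020, plus strand: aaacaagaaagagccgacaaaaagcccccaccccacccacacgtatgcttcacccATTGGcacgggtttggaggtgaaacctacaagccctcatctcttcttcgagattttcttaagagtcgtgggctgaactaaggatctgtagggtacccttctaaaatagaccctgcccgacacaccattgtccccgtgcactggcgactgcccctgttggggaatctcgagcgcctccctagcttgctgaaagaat
Fut1, chr7:45617356-45617605, plus strand: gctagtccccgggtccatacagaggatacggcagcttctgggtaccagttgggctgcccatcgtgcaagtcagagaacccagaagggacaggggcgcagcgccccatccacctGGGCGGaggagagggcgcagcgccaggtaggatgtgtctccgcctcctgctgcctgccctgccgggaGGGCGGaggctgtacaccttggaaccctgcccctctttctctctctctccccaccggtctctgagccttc
Gcnt1, chr19:17356668-17356917, minus strand: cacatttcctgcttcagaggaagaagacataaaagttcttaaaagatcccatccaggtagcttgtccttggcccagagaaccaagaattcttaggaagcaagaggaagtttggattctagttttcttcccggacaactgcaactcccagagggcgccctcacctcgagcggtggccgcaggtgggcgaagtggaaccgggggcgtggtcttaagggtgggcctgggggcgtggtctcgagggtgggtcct
The St3gal6 window held 4 GC boxes on its reverse strand, 52, 86, 91 and 164 bases before the start, of which the pair at 86 and 91 overlapped. The Fut1 window held 2, at 70 and 137 bases. The St6gal1 window held a CCAAT match on its reverse strand, printed there as ATTGG, and no GC box, and the printed Gcnt1 window held none of the 7 motifs. The windows not printed held CCAAT matches in all 3 genes. A Gcnt1 window also held TATAAA, on the forward strand 244 bases and on the reverse strand 29 bases before its start. G and C made up 65.6% of the single Fut1 window, 64.4% and 34.8% of the St3gal6 windows, 52.8%, 49.6% and 47.2% of those of St6gal1, and 55.6%, 51.6% and 40.4% of those of Gcnt1. The printed windows were picked for this share, which is therefore not compared with that of other genes. A GC box was found in 58.2% of the 55 windows of the tested enzymes and in 32.7% of all windows, and TATAAA in 1.82%, the Gcnt1 window just named, and 12.4%. The 55 windows cover 41 of the 54 tested symbols. Tested enzymes had passed a filter on counts, whereas all windows include genes without counts, so that the sets are unlike. Over all windows of the symbol set, tested or not, the GC box share was 55.1%. The AP-1 letters were found in 0 of the 55 windows and in 4.46% of all windows. Windows of a gene with several starts were counted separately, and a match, or its absence, describes letters in the window alone.

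Among the sialyltransferases, St3gal6, St3gal1 and St6gal1 rose. St3gal6 adds sialic acid to carbon 3 of galactose on N-acetyllactosamine chains, a step of sialyl Lewis x synthesis. It was at 14.0, 12.7 and 63.0 CPM in control replicates 1, 2 and 3 and at 27.5, 31.3 and 111 CPM in the Erbb2 libraries of the same numbers. Each Erbb2 library stood above its own control, but both libraries of replicate 3 were far above the other 4 and the groups overlapped. St3gal6 rose 2.0-fold (log2 fold change 1.0, SE 0.11, adjusted p = 0.000907 in edgeR with the block; 1.92e-10 to 0.00285 in the 7 other settings with the block). It passed with each pair of libraries left out. A share of 26% of its exon length overlaps Dcbld2 on the opposite strand, and the strand setting of the counting is not given; Dcbld2 had a mean of 37.3 ± 5.67 CPM in controls and 36.5 ± 5.17 CPM in the Erbb2 group (SD, n = 3).

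St3gal1, which caps the galactose of core 1 and so competes with core 2 branching, was lower in level, at 1.34, 2.65 and 2.50 CPM in controls and 2.22, 3.79 and 9.28 CPM in the Erbb2 libraries. Erbb2 replicate 3 stood apart, and the groups overlapped. It rose 2.35-fold at the edge of the threshold (SE 0.31 on the log2 scale, adjusted p = 0.0495 in edgeR with the block). The call was lost in 6 of the 7 other settings with the block, where the adjusted p lay between 0.0486 and 0.122, and without each pair in turn (0.0934, 0.0628 and 0.363 without replicates 1, 2 and 3). Without replicate 3 its log2 fold change was 0.61, against 1.24 with all pairs.

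St6gal1 adds sialic acid to carbon 6 of galactose, mainly on N-linked chains. It was at 27.9, 18.5 and 35.8 CPM in controls and 40.5, 35.0 and 49.8 CPM in the Erbb2 libraries, so that the highest control was just above the lowest Erbb2 library. It rose 1.54-fold (SE 0.11, adjusted p = 0.0105 in edgeR with the block; 0.000791 to 0.0158 in the 7 other settings). Without replicate 2 the adjusted p was 0.0929, and it passed without replicate 1 or replicate 3 (0.0282 and 4.82e-06).

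St8sia6, which adds a further sialic acid to sialylated O-glycans, had the largest estimate among the tested enzymes and did not pass. It was at 5.14, 1.63 and 32.4 CPM in controls and 30.3, 26.6 and 62.5 CPM in the Erbb2 libraries. The within-pair log2 ratios were 2.55, 4.0 and 0.95, and the groups overlapped through control replicate 3 alone. The log2 fold change was 1.97 (SE 0.70, adjusted p = 0.378 in edgeR with the block). DESeq2 and limma voom with the block called it higher (adjusted p = 0.0395 and 0.0292), and so did edgeR without replicate 3 (log2 fold change 3.06, adjusted p = 1.60e-16). Without replicates 1 and 2 the log2 fold changes were 1.92 and 1.62 (adjusted p = 0.746 and 0.445).

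St3gal4, the most abundant ST3GAL gene per kb of exon, lay between 56.7 and 80.3 CPM in all libraries, with a log2 change of 0.01 (SE 0.09, adjusted p = 0.987). St3gal5 makes the ganglioside GM3, a glycolipid, and was lower in the Erbb2 library of every pair, with a log2 change of -0.31 (SE 0.13, adjusted p = 0.232). St6galnac2, which adds sialic acid to the first N-acetylgalactosamine, was read from 2 identifiers that share 383 exon bases, so that reads between them are uncertain. Identifier ENSMUSG00000057286 was at 27.7, 36.7 and 27.1 CPM in controls and 26.8, 26.2 and 17.8 CPM in Erbb2 libraries, and its groups did not overlap. Its log2 fold change was -0.37 and that of ENSMUSG00000110170 was -0.36 (adjusted p = 0.145 and 0.200 in edgeR with the block). St6galnac1, the enzyme of the sialyl-Tn antigen, had 0 counts in every library, as had St6galnac3, St6galnac5, St8sia1 and St8sia2.

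**Figure D2:**
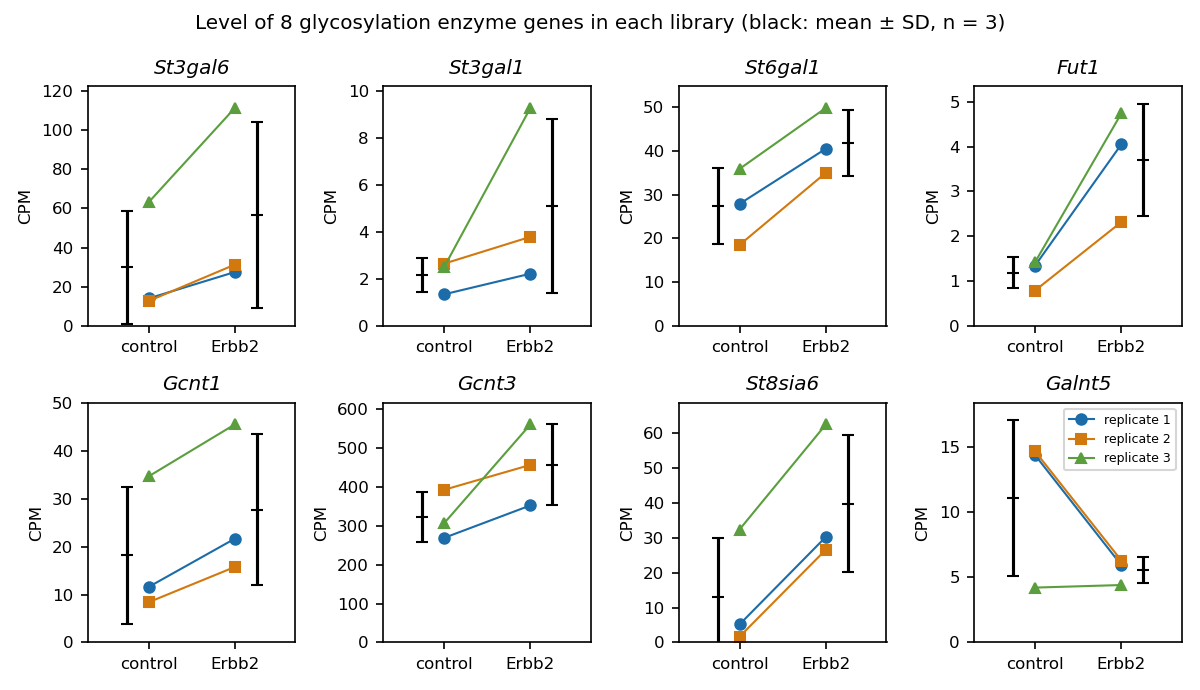
Level in CPM (linear axes from 0) of 8 enzymes in each library; lines join libraries of the same replicate number, and black marks give the mean ± SD over 3 libraries, cut at 0. The first 5 panels are the genes that rose with the block; St8sia6 was higher in all 3 pairs but its control replicate 3 stood at 32.4 CPM, and Galnt5 was lower in replicates 1 and 2 only.

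Of 6 tested fucosyltransferase genes 1 rose. Fut1 adds fucose to the terminal galactose to make the H antigen. It was at 1.34, 0.789 and 1.42 CPM in controls and 4.06, 2.32 and 4.75 CPM in the Erbb2 libraries, from 14 to 33 and from 41 to 114 counts. The groups did not overlap. Fut1 rose 3.13-fold (log2 fold change 1.65, SE 0.30, adjusted p = 0.0114 in edgeR with the block; 0.00691 to 0.0250 in the 7 other settings), and the pairs gave log2 ratios of 1.58, 1.52 and 1.73. Without replicate 1 the adjusted p was 0.0575.

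Fut2, the secretor enzyme that makes the same H structure in gastric mucosa, was far more abundant. It was at 219, 352 and 145 CPM in controls and 246, 295 and 178 CPM in the Erbb2 libraries, with a log2 change of 0.07 (SE 0.10, adjusted p = 0.795). Per kb of exon Fut2 had a mean level of 44.1 CPM and Fut1 one of 0.878 CPM, so that the gene that rose held a small part of the summed H transferase level. Fut8, the core fucosyltransferase of N-glycans, lay between 154 and 205 CPM with a log2 change of 0.03. Fut9, a Lewis x enzyme, was higher in the Erbb2 library in replicates 1 and 2 and lower in replicate 3, with log2 ratios of 0.51, 0.52 and -0.28. It passed without replicate 3 (adjusted p = 0.00464), and not without replicate 1 or 2 or with all pairs (0.348). Fut4 had a log2 change of -0.04 (adjusted p = 0.936), and Fut7, the sialyl Lewis x enzyme of leukocytes, had 0 counts.

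Branching enzymes were higher in the Erbb2 library of every pair for all 4 tested GCNT genes, and 1 passed. Gcnt1 was at 11.6, 8.39 and 34.7 CPM in controls and 21.7, 15.8 and 45.6 CPM in the Erbb2 libraries. Replicate 3 was again the highest in both groups, which overlapped. Gcnt1 rose 1.61-fold (SE 0.14 on the log2 scale, adjusted p = 0.0181 in edgeR with the block; 0.00165 to 0.0361 in the 7 other settings). It missed the threshold without replicate 1 or replicate 2 (0.0966 and 0.0893).

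Gcnt3, the mucin-type enzyme that makes core 2 and core 4, was at 269, 392 and 306 CPM in controls and 352, 457 and 561 CPM in the Erbb2 libraries. Averaged over the libraries of both groups, it had the highest level per kb of exon among the 90 enzymes, 90.6 CPM. In controls alone it overlapped B3gnt3, at 62.5, 91.2 and 71.2 CPM per kb against 66.5, 89.3 and 90.7 for B3gnt3. The log2 fold change of Gcnt3 was 0.49 (SE 0.12) and its adjusted p 0.0554 in edgeR with the block. It passed in 2 of the 7 other settings (0.0348 to 0.318). Its adjusted p was 0.225, 0.0331 and 0.00970 without replicates 1, 2 and 3, at log2 fold changes of 0.55, 0.65 and 0.31. Gcnt4, a further core 2 enzyme, had a log2 change of 0.83 (SE 0.28, adjusted p = 0.160). Gcnt2, the I-branching enzyme, averaged 83.6 ± 5.49 CPM in controls and 94.1 ± 3.97 CPM in the Erbb2 group (SD, n = 3). Its groups did not overlap, and the difference did not pass (adjusted p = 0.323). Summed per kb of exon, the GCNT genes were at 91.0 ± 13.1 CPM in controls and 126 ± 27.5 CPM in the Erbb2 group, with overlap between them.

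At the start of the chain, 11 of 17 GALNT genes were tested and 0 changed. Per kb of exon, Galnt6 had the highest mean level at 58.4 CPM, followed by Galnt4 at 51.0, Galnt3 at 43.6 and Galnt7 at 37.9 CPM, and these neighbours overlapped across libraries. Galnt6 ranged from 33.7 to 83.3 CPM per kb, and Galnt3 from 41.0 to 49.9. The log2 fold changes of Galnt6, Galnt4 and Galnt3 were 0.02, 0.02 and 0.04, each with an SE of at most 0.09 (adjusted p between 0.848 and 0.948). Galnt7 was higher in the Erbb2 library of every pair, with a log2 change of 0.18 (SE 0.08, adjusted p = 0.295). The GALNT sum per kb was 274 ± 49.4 CPM in controls and 272 ± 31.6 CPM in the Erbb2 group. Galnt5 was the exception in size: it was at 14.4, 14.7 and 4.22 CPM in controls and 5.93, 6.29 and 4.41 CPM in the Erbb2 libraries. The difference was present in replicates 1 and 2, and the pair of replicate 3 was low in both groups. Its log2 fold change was -0.91 (SE 0.24, adjusted p = 0.0730 with the block), and 0 of the 7 other settings called it. Without replicates 1, 2 and 3 it was -0.65, -0.70 and -1.25 (adjusted p = 0.421, 0.431 and 3.88e-07). Galnt1 was lower in the Erbb2 library of every pair, with a log2 change of -0.20 (SE 0.08, adjusted p = 0.198). Galnt9, Galnt13 and Galnt17 had 0 counts.

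C1galt1, the core 1 synthase, was at 249, 269 and 180 CPM in controls and 218, 280 and 240 CPM in the Erbb2 libraries (log2 fold change 0.09, SE 0.10, adjusted p = 0.721). C1galt1c1, which encodes its chaperone and lies outside the symbol rule, had a log2 change of -0.13 (adjusted p = 0.576). B3gnt6, the core 3 synthase, had at most 2 counts in any library and was not tested. The counts thus held abundant transcripts for core 1 and core 2 and next to none for core 3.

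Of the chain-lengthening enzymes, 0 of 5 tested B3GNT, 0 of 2 B3GALT, 0 of 7 B4GALT and 0 of 3 B4GALNT genes changed. B3gnt3, which extends core 1, lay between 203 and 277 CPM, with a log2 change of -0.02 (SE 0.08, adjusted p = 0.948). B4galt1 averaged 184 ± 40.9 CPM in controls and 162 ± 21.3 CPM in the Erbb2 group (adjusted p = 0.432). B4galt6, a lactosylceramide synthase, was at 170, 149 and 165 CPM in controls and 173, 182 and 202 CPM in the Erbb2 libraries, and B4galt7, which builds the linker of proteoglycans, at 8.11, 9.13 and 7.74 CPM and 10.9, 10.1 and 10.6 CPM. In neither gene did the groups overlap, and neither passed (adjusted p = 0.239 and 0.299). B4galnt1, a ganglioside enzyme and the most abundant of its family, had a log2 change of 0.25 (SE 0.08, adjusted p = 0.155), and B4galnt3 one of 0.57 (adjusted p = 0.175). B3gnt9 was near the detection limit, at 22, 12 and 13 counts in controls and 2, 7 and 4 in Erbb2 libraries. Its groups did not overlap and its adjusted p was 0.197. In all, the groups did not overlap for 6 of the 55 tested enzymes (10.9%), 4 higher and 2 lower, where 8.75% of all genes tested did not, 4.27% higher and 4.48% lower. B3gnt9, among the 2 lower, passed the count filter through the controls, the group in which it was high. The filter thus favours its lack of overlap, which is no support for a difference.

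Of 14 CHST genes 6 were tested and 0 changed. Chst11 and Chst15, sulfotransferases of chondroitin sulfate, led the family per kb of exon at 3.89 and 3.22 CPM, with log2 fold changes of -0.16 and -0.14 (adjusted p = 0.644 and 0.668). Chst14, a dermatan sulfate enzyme, stood at 0.814 ± 0.566 CPM in controls and 1.53 ± 0.934 CPM in the Erbb2 group (SD, n = 3; adjusted p = 0.269). Chst1, Chst2, Chst4 and Chst5, which sulfate N-acetylglucosamine or galactose on mucin-like chains, had at most 10 counts in any library. Over the whole set, 12 enzymes had 0 counts in all libraries, and a count of 0 allows up to 3 counts, or 0.125 to 0.170 CPM per library. The other 23 untested enzymes reached at most 1.13 CPM. Such limits cover counting error only.

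**Figure D3:**
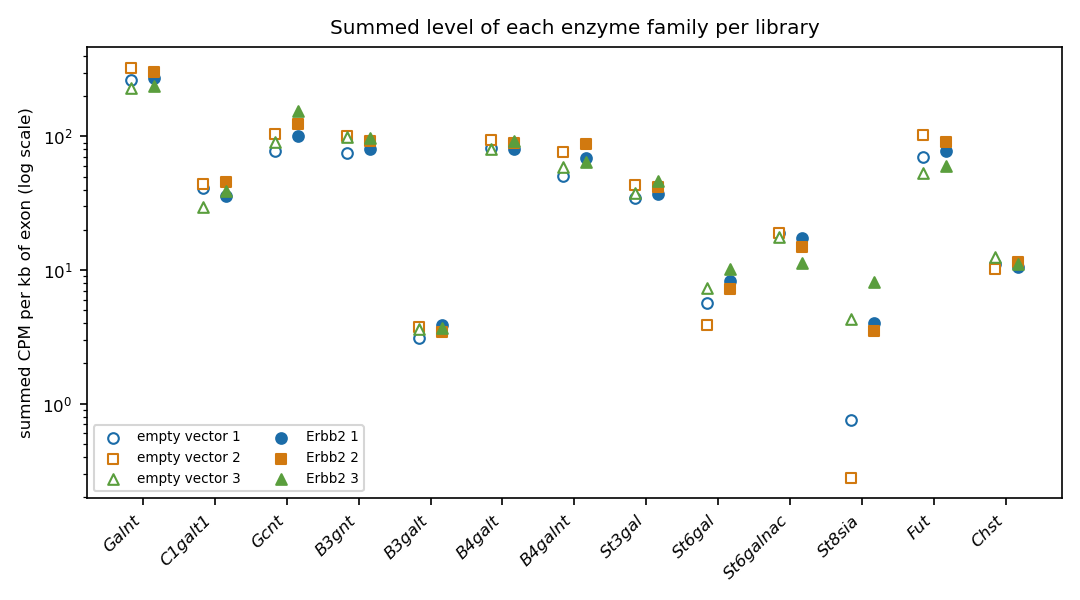
Summed CPM per kb of exon of each of the 13 symbol families in each library, on a log axis; open marks are empty vector, filled marks Erbb2, and shapes give the replicate number. The GALNT sum lay between 231 and 328 in all libraries, while the ST8SIA sum went from 0.280 in control replicate 2 to 8.19 in Erbb2 replicate 3.

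Several enzymes differed widely between replicate numbers. Averaged over both groups, replicate 3 stood above the mean of replicates 1 and 2 by 2.30 on the log2 scale for St8sia6, 2.08 for St3gal6, 1.74 for B4galt2 and 1.56 for Gcnt1. It stood below by a log2 difference of -1.45 for Fut9, -1.24 for Fut4, -1.12 for Galnt5 and -0.97 for Galnt6. With the block and without replicate 3, 11 enzymes rose and 2 fell (Galnt5 and B4galt1), where 6.15% and 2.56% of all genes did. Without replicate 1, 2 enzymes rose (1.37% of all genes), and without replicate 2, 3 rose (0.95%), with 0 enzymes lower in either case (0.317% and 0.188% of all genes). Among the other settings with the block, DESeq2 and voom each called 6 enzymes higher, losing St3gal1 and adding St8sia6, and Gcnt4 or Gcnt3, while 2.91% and 2.29% of all genes were called higher. With no low-count filter, with at least 1 CPM in 3 libraries and with the earlier form of the edgeR fit, St3gal1 was lost and 4 enzymes rose, where 1.64%, 2.57% and 2.48% of all genes did. The same 5 settings called 0 enzymes lower, and 0.762%, 0.699%, 0.439%, 0.688% and 0.739% of all genes.

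**Figure D4:**
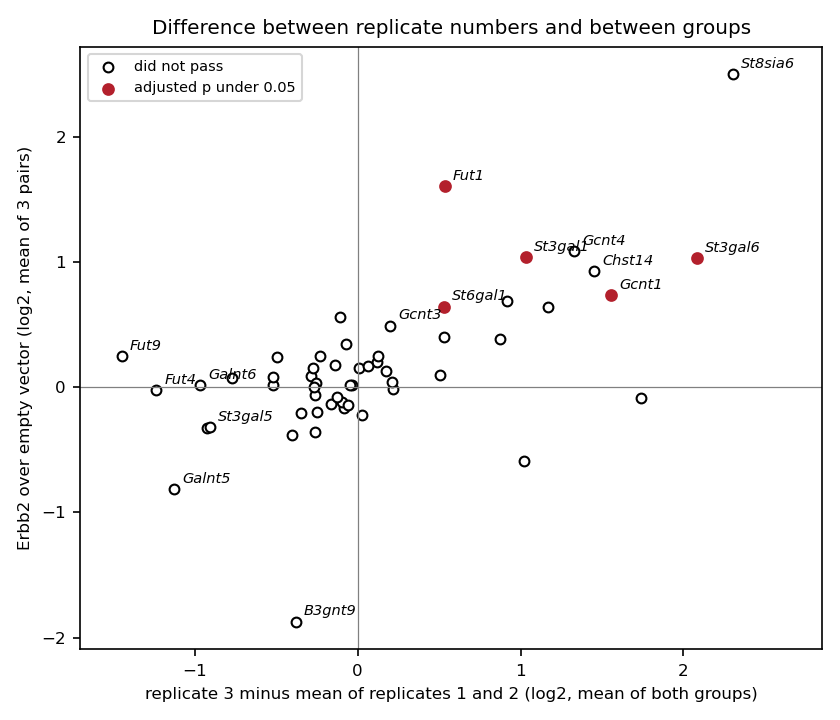
For each tested enzyme, the log2 difference of replicate 3 from the mean of replicates 1 and 2, averaged over both groups (x), and the mean log2 ratio of Erbb2 over empty vector within the 3 pairs (y); red points rose with the block. Both axes come from the same 6 libraries; St3gal6 lies at 2.08 and 1.03, St8sia6 at 2.30 and 2.50 and Fut9 at -1.45 and 0.25.

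Other genes of the same pathway were taken from 7 lists. Of 19 tested genes of nucleotide sugar supply and 13 of Golgi transport, 0 changed, with medians of -0.05 and 0.03. Gfpt1, the first enzyme of hexosamine synthesis, averaged 480 ± 29.3 CPM in controls and 583 ± 19.0 CPM in the Erbb2 group (adjusted p = 0.0670), and Slc35a3, a UDP-N-acetylglucosamine transporter gene, had a log2 change of -0.17 (adjusted p = 0.294). Of 12 tested N-glycan branching genes 2 rose, where 2.37% of all genes tested did. Mgat4c, of the enzymes that start a branch on the N-glycan core, was at 5.61, 3.27 and 11.1 CPM in controls and 22.6, 10.9 and 60.4 CPM in the Erbb2 libraries and rose 4.49-fold (adjusted p = 3.55e-05; 8.80e-23 to 0.000167 in the 7 other settings). Mgat5, which makes the branch bound by galectins, was at 59.6, 58.0 and 79.8 CPM and at 89.3, 87.9 and 119 CPM and rose 1.5-fold without overlap (adjusted p = 0.00275; 3.17e-06 to 0.00403). Both passed with each pair left out. The median of the list was 0.00.

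For the lists that follow, 2.37% of all genes tested rose and 0.723% fell. Of 10 tested O-glycan enzymes outside the symbol rule 1 rose, Ggta1, the alpha-galactosyltransferase of non-primate mammals. It was at 6.95, 5.18 and 39.9 CPM in controls and 19.2, 14.4 and 66.0 CPM in the Erbb2 libraries and rose 2.15-fold (adjusted p = 0.00414; 5.17e-08 to 0.0101). Of 15 glycosidases and 8 glycan-binding lectins, 0 changed, with medians of -0.01 and -0.06; Fuca2, a fucosidase gene, had a log2 change of -0.28 (adjusted p = 0.0792) and Lgals4, a galectin gene, one of -0.16 (adjusted p = 0.301). Of 8 tested mucins and mucin-like proteins, which carry these chains, 2 rose and 1 fell (median 0.37). The membrane mucin gene Muc16 was at 15.2, 29.3 and 0.990 CPM in controls and 35.4, 112 and 2.25 CPM in the Erbb2 libraries and rose 2.98-fold (adjusted p = 0.000517). Mucl3 rose 1.47-fold (adjusted p = 0.0155). Cd24a, a small mucin-like surface protein, fell 1.27-fold (adjusted p = 0.0481), with 3064 ± 1027 CPM in controls and 2377 ± 593 CPM in the Erbb2 group (SD, n = 3), and this call was lost in 3 of the 7 other settings (0.00643 to 0.0568) and without replicate 1 or 2 (0.213 and 0.495). The summed level of the mucin list was lower in the Erbb2 library of every pair, led by Muc1, whose log2 fold change was -0.26 (adjusted p = 0.145). In controls this sum averaged 9907 CPM, of which Muc1 held 5927 and Cd24a 3064 CPM, so that it mostly follows these genes. Muc6 was not in the list, and Muc4 and Muc17 were not found by symbol.

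**Figure D5:**
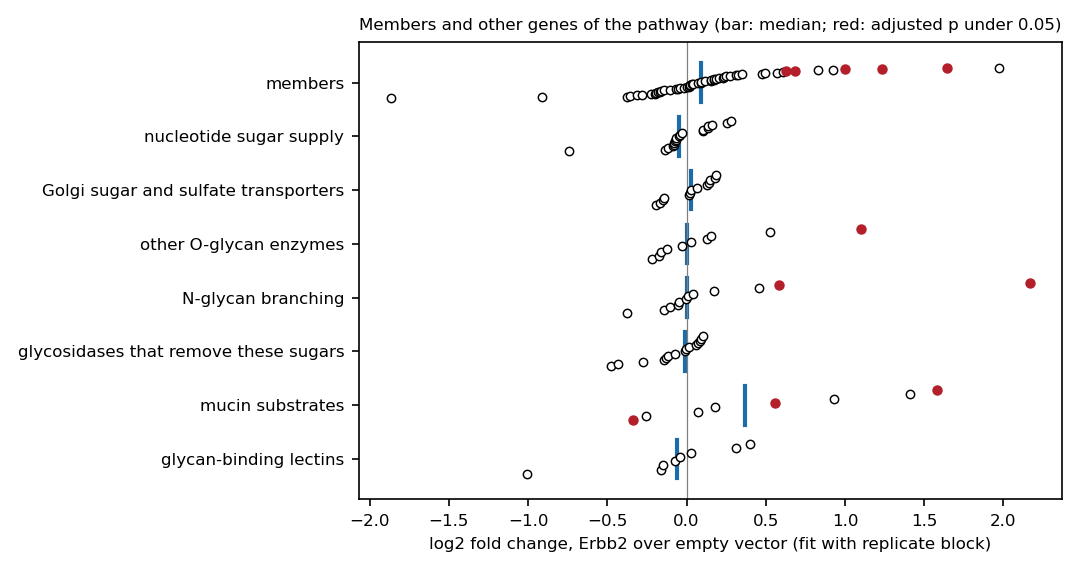
Log2 fold change with the replicate block of every tested gene of the symbol set (top) and of 7 lists of related genes; red points had an adjusted p under 0.05 and bars are medians. The median was 0.09 for the symbol set and between -0.06 and 0.37 for the lists, the highest being that of mucin substrates with 8 tested genes.

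Markers of gastric cell types were counted in the same fit with the block, in which 2.37% of all genes tested rose and 0.723% fell. Of 8 mucous neck cell markers 4 rose (Tff2, Agr2, Cftr and Nupr1) and 0 fell, and their summed level lay between 1636 and 2354 CPM in controls and between 2106 and 3113 CPM in the Erbb2 group, higher in 3 of 3 pairs. Of 8 pit cell markers 7 were tested and 3 rose (Psca, Aldh3a1 and Mucl3), with sums of 783 to 1408 and 1331 to 2086 CPM. Of 9 squamous forestomach markers 6 were tested and 2 rose (Sprr1a and Ivl), with sums of 486 to 614 and 701 to 953 CPM; Krt5 and Trp63, which define basal squamous cells, had 0 counts in all controls and at most 0.375 CPM in Erbb2 libraries. Of 8 intestinal markers 4 were tested and 1 rose, Cdx2, with Cdx1, Sis and Alpi at 0. The intestinal sum was lower in the Erbb2 library of every pair, at 848 to 1477 CPM in controls and 820 to 1424 CPM in the Erbb2 group. The sum and the single markers differ in direction: 3 of the 4 tested had log2 fold changes above 0 (median 0.46). Only Lgals4 lay below 0, and it did not pass. Of 8 parietal markers 4 were tested and 1, Kcnj15, fell, with Atp4b and Slc26a7 at 0. The other 3 tested had log2 fold changes above 0 and did not pass. The parietal sum was higher in 3 of 3 pairs, at 541 to 840 CPM in controls and 609 to 900 CPM in the Erbb2 group. Of 5 tested chief cell and 4 tested enteroendocrine markers, 0 changed. Summed fibroblast, immune and endothelial markers stayed at or under 97.5, 74.0 and 15.2 CPM, and 0 of their 7 tested genes changed. In bulk RNA, more cells of a type and more RNA per cell cannot be told apart, and the part of these markers in the enzyme results was not tested.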

How the data were processed

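Libraries of polyadenylated RNA from 6 organoid samples were made with an Illumina kit, per the labels' protocols. The authors deposited raw counts per Ensembl gene; the submitters' processing notes name STAR, featureCounts and GRCm39, without versions, annotation or strand setting. Testing used the two-sided robust quasi-likelihood F test of edgeR 4.0.16 (R 4.3.3) after filterByExpr with a minimum count of 10 and TMM scaling, with Benjamini-Hochberg adjustment over 12593 genes at 0.05. Each SE was the log2 fold change over the square root of F. Libraries of a group differed far beyond counting noise (chi-square per degree of freedom 35.2 to 133).

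The main design held the group alone, and a second fit added the replicate number as a block. Same-numbered libraries deviated together from their group means (correlations of 0.333, 0.660 and 0.707 across genes for numbers 1, 2 and 3). Libraries of unlike numbers gave correlations from -0.657 to 0.128, the highest being control 1 with Erbb2 2. Deviations from a group mean of 3 libraries sum to 0. Positive values for equal numbers therefore push those for unlike numbers below 0. The labels hold only the numbers, and pairing is therefore inferred from these counts. Alternatives were DESeq2 1.42.0, limma 3.58.1 voom, other scalings and filters, left-out libraries and, added after the data were seen, the earlier form of the fit. DESeq2 gave 250 genes no adjusted p without the block, and these stayed missing.

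Symbols and exon lengths came from GENCODE M21 by Ensembl ID (25424 of 25528 matched). That annotation is of GRCm38, and the only coordinates printed, those of the promoter windows, are of GRCm38.p6 and not of GRCm39. IDs without a symbol held 0.12% to 0.219% of counts and stayed in the tests. Within-pair ratios used 0.5 added counts. The genes and lists were chosen with earlier results of these data known. Genes named are those past the threshold in either fit, the 20 enzymes with the smallest p with the block, the 2 most abundant per family, enzymes without overlap and, per list, at most 6 that passed or else the gene with the smallest p. Other enzymes and genes named, such as Galnt3, Fut4, B3gnt6, C1galt1c1, Muc1, Dcbld2 and single cell markers, were chosen after their values were seen. The fits were also run on simulated counts. Their replicate effect was taken from the same-numbered libraries, so that this run does not test the pairing.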

Additional observations from a re-analysis of the deposited data

How the results depend on the processing

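Without the block, 0 enzymes passed in either direction under every alternative run. Over all genes, DESeq2 without the block called 28 higher and 6 lower, and edgeR with a library left out 0 to 1 higher. With the replicate block, which pairs libraries by number, 5 enzymes rose, and 5 with relative log expression or upper-quartile scaling, 6 with DESeq2 or voom, and 4 with no low-count filter, a filter of 1 CPM or the earlier fit. Leaving out pair 1, 2 or 3 gave 2, 3 and 11 higher, and 2 lower without pair 3. Over all genes the block gave 298 higher and 91 lower, then 312 and 83 (relative log expression), 287 and 93 (upper quartile), 366 and 96 (DESeq2), 288 and 88 (voom), 272 and 73 (no filter), 306 and 82 (1 CPM), 312 and 93 (earlier fit), and 173 and 40, 121 and 24, and 769 and 320 without pairs 1, 2 and 3. The pathway lists held 124 genes before filtering. Pathway-list genes counted 5 higher and 1 lower with the block, 8 and 1 with DESeq2, 7 and 1 with voom, 6 and 1 with the earlier fit, 5 and 1 with upper-quartile scaling, 5 and 0 with the other scaling and filters, and 6, 6 and 8 higher with 0, 0 and 3 lower without pairs 1, 2 and 3. The median over enzymes was 0.080, and 0.017 to 0.128 with a library left out. Erbb2 had a log2 fold change of 1.229 and passed in DESeq2 (1.234) and in all fits with the block: 1.235 (also voom, no filter and the earlier fit), 1.240 (relative log expression, DESeq2), 1.234 (upper quartile), 1.238 (1 CPM), and 1.124, 1.320 and 1.278 without pairs 1, 2 and 3. The cause of these shifts was not tested.

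Enzymes near 0 changed sign. So did St3gal6, Ggta1 and Mucl3, which rose with the block, when a single library was left out of the fit without it. Galnt6 was at -0.021, and at 0.019 with voom, 0.018 with the block (also with no filter and the earlier fit), 0.023 (block with relative log expression or DESeq2), 0.017 (upper quartile), 0.016 (voom) and 0.021 (1 CPM). St3gal4 was at -0.007, and at 0.007 with voom, 0.005 with the block (also upper quartile and the earlier fit), 0.010 (relative log expression, DESeq2), 0.006 (voom, no filter) and 0.009 (1 CPM). With the block and a pair left out, B3galt4 came to -0.025 without pair 1, Fut8 to -0.008 and Galnt4 to -0.028. Without pair 2, B3galt6 came to 0.018, B3gnt3 to 0.051, Galnt6 to 0.147 and St3gal4 to 0.107. Without pair 3, B3gnt2 came to -0.035, B3gnt3 to 0.001, C1galt1 to -0.061, Chst15 to 0.037 and Fut2 to -0.039. Without the block, leaving out a single library gave log2 fold changes from -0.145 to 0.518 for B3galt4, -0.263 to 0.141 for B3galt6, -0.017 to 0.050 for B3gnt2, -0.157 to 0.056 for B3gnt3, -0.279 to 0.017 for B4galt1, -0.073 to 0.198 for C1galt1, -0.251 to 0.397 for Fut2, -0.082 to 0.167 for Fut8, -0.154 to 0.249 for Galnt4, -0.298 to 0.316 for Galnt6, -0.105 to 0.153 for St3gal4, -0.032 to 2.098 for St3gal6, -0.340 to 0.013 for Slc35a3, -0.464 to 0.093 for Lgals4, -0.401 to 1.242 for Mucl3 and -0.059 to 2.458 for Ggta1. The lowest value of St3gal6 and of Ggta1 came without Erbb2 replicate 3, and that of Mucl3 without Erbb2 replicate 2. Low counts limit Fut1, St3gal1 and B3gnt9, whose libraries held at most 223 counts.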
